A study of Mus with 4 samples.

Results

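The metalloproteases that cut matrix and cell-surface proteins, and the inhibitors that hold them in check, were examined in a murine podocyte cell line given the active form of OASIS. The array carried 84 genes whose symbol was Adam, Adamts, Adamtsl, Mmp or Timp followed by a number and, for some, a letter, out of 26893 named genes. These genes had 167 of the 56605 probes. They were 33 Adam genes with 64 probes, 19 Adamts genes with 48, 5 Adamtsl genes with 13, 23 Mmp genes with 33 and 4 Timp genes with 9. The rule reads the symbol and no measured value.

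ADAMs are membrane proteins, and those with an active protease domain release growth factors, receptors and adhesion molecules from the cell surface. ADAMTS enzymes are secreted and act on procollagens, on proteoglycans such as aggrecan and versican, and on microfibril proteins, while the ADAMTS-like proteins share their accessory domains but have no protease domain. MMPs digest collagens, basement membrane and other matrix, and the TIMPs bind and block MMPs and, in the case of TIMP3, several ADAM and ADAMTS enzymes. In the glomerulus, podocytes face a basement membrane that these families help to build and to turn over.

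The array experiment looked for genes downstream of OASIS, a transcription factor encoded by Creb3l1, in podocytes. Both groups were the same immortalized line, differentiated for 10 to 14 days at 37 °C without interferon-γ. They were infected for 24 h with a lentivirus at a multiplicity of infection of 200 to 500. The medium held 8 µg/mL polybrene and 10% FBS, and total RNA was taken 48 h after the virus was added. The control group, labelled Venus, received a virus for the fluorescent protein venus (n = 2 arrays), and the group labelled OASIS received a virus for the active form of OASIS (n = 2 arrays). The labels do not say whether the 2 samples of a group came from separate infections, so that the p-values measure the spread between these samples, which may be technical. In a culture, fewer cells that express a gene and less of its RNA per cell cannot be told apart.

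Each sample had its own 1-colour array, and the 4 arrays lay on 1 slide read in 1 scan. Of 59305 spots that were not controls, between 33938 and 34418 were well above background. The 1 probe of Creb3l1 read 0.72 ± 0.0087 (SD, n = 2) with Venus and 0.55 ± 0.081 with OASIS on the normalized log2 scale, a log2 fold change of -0.17 (standard error, SE, 0.10 and limma adjusted p = 0.298). Whether the part of the transcript that this probe reads lies in the virus's insert is not known here, so that it does not check the labels, and the directions given for the OASIS arrays rest on the labels. Of the podocyte markers, 8 were tested, while Ptpro and Tcf21 were not well above background on any array and Nphs1, the gene of nephrin, was not tested.

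A probe was seen on an array when it was well above background there. Of the 84 genes, 42 had a probe well above background on all 4 arrays, and 32 had none on any array. By probe, 65 of 167 were well above background on all 4 arrays, 22 on 1 to 3 arrays and 80 on none. The Timp and Adamts families had the highest shares of probes seen on every array, 6 of 9 and 21 of 48. The genes seen on no array included 12 of the 21 Adams of the male reproductive tract, the collagenases Mmp1a, Mmp1b and Mmp13, the stromelysin Mmp3, the elastase Mmp12, the matrilysin Mmp7 and the inhibitor Timp4. A probe enters the test when both arrays of 1 group or of the other saw it, and 78 probes of 48 genes did. For some probes that 1 group did not see, a bound on the fold is given. It compares group means, with the unseen group's values raised at least to the lowest signal above background. The bound takes no account of the spread between arrays, so that the true fold may be smaller.

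**Figure D1:**
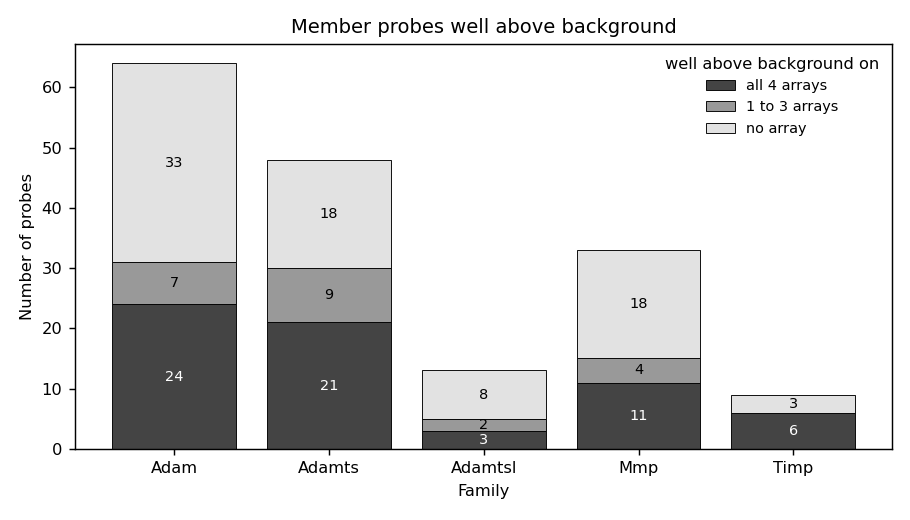
Number of probes of each family that were well above background on all 4 arrays, on 1 to 3 arrays or on none. Of the 33 Mmp probes 18 were seen on no array, against 3 of the 9 Timp probes, all of Timp4.

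With OASIS, the changes past the threshold lay mainly among the Adamts genes, and none lay among the Mmp genes. A probe passes the threshold at a fold over 2.0 or under 0.5 and a limma p, adjusted by Benjamini-Hochberg over all 31598 probes tested, under 0.1. Among the 78 probes tested, 9 were higher (11.5%) and 2 lower (2.56%), beside 5.89% higher and 2.47% lower among all probes tested. By the brightest tested probe of each gene, 5 of 48 genes were higher (10.4%), Adam3, Adamts8, Adamts12, Adamts14 and Adamts17, and 0 were lower, beside 6.21% and 1.85% of all named genes. At an unadjusted limma p under 0.05 with no limit on the fold, 11 of the 48 genes were higher (22.9%) and 9 lower (18.8%), beside 20% and 20.9% of all named genes. A probe seen in 1 group alone must differ to be tested at all. Among the 65 probes seen on all 4 arrays, 5 were higher and 2 lower, where 4.56% and 2% of such probes on the whole array passed. The median log2 fold change was -0.047 over the 78 probes and -0.069 over all probes tested.

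By family, 8 of 26 tested Adamts probes and 4 of 13 tested Adamts genes were higher, 30.8% in each case, and none was lower. Among the 21 Adamts probes seen on all 4 arrays 5 were higher, where 4.56% of such probes on the whole array passed. By gene this left Adamts12, Adamts14 and Adamts17. The other higher Adamts probes were seen on 1 Venus array or none and entered the test through the OASIS arrays, where they are high. Among the 29 tested Adam probes 1 was higher and 1 lower, among the 6 tested Timp probes 1 was lower, and none of the 13 Mmp or the 4 Adamtsl probes passed. The family medians were 0.16 for Adamts, -0.14 for Adam, -0.11 for Mmp, -0.30 for Adamtsl and -0.35 for Timp on the log2 scale. Both OASIS arrays lay above both Venus arrays for 24 of the 78 probes (30.8%) and below both for 28 (35.9%), where 28.6% and 39.4% of all probes did. At an adjusted p under 0.1 with no limit on the fold, 19 probes were higher and 16 lower, beside 17% and 19.7% of all probes. Replicates differed more for these probes than for the array at large, with a median gap of 0.16 between the Venus arrays and 0.28 between the OASIS arrays against 0.11 and 0.17.

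**Figure D2:**
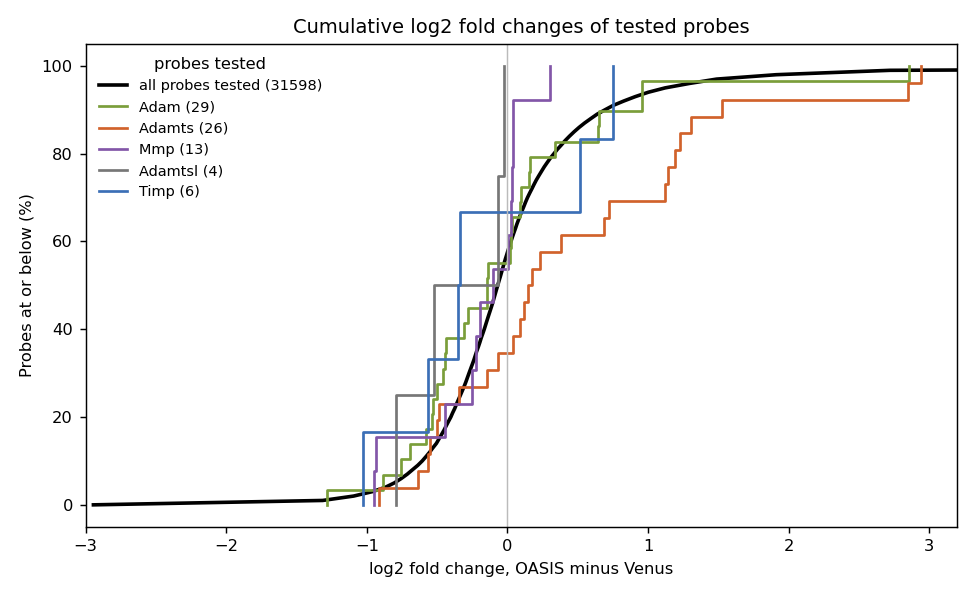
Percentage of tested probes at or below each log2 fold change (OASIS minus Venus), for all 31598 probes and for each family, with the number of probes in brackets. The Adamts curve, with a median of 0.16, ends at 2.94, and the Mmp curve lies between -0.95 and 0.30.

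**Figure D3:**
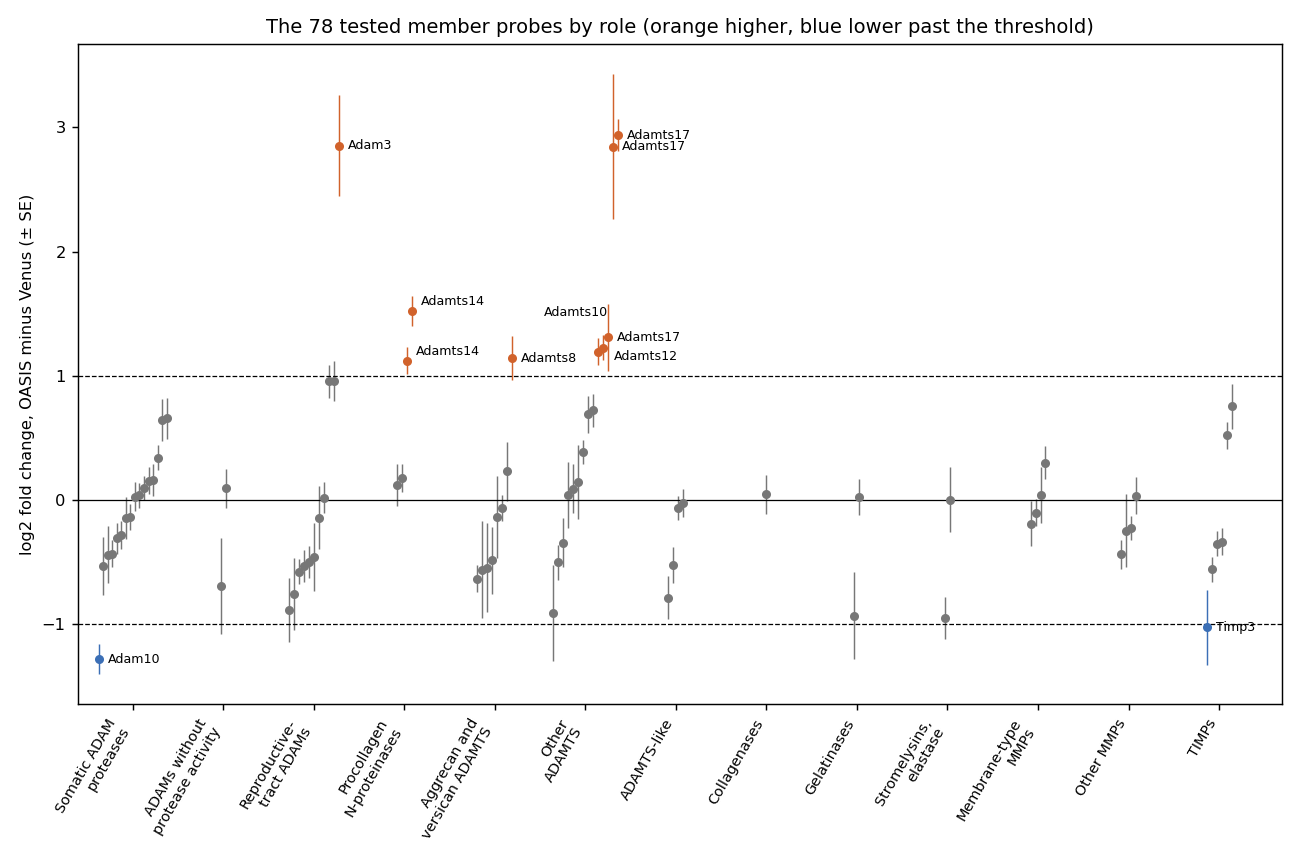
Log2 fold change (OASIS minus Venus) with its standard error for each of the 78 tested probes, grouped by what the protein does. Dashed lines mark 2-fold, orange points passed the threshold as higher and blue points as lower, and the points above 2 are the Adam3 probe and a pair of Adamts17 probes.

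The procollagen N-proteinases cut the N-terminal propeptides from fibrillar procollagens. Of the 3, Adamts14 rose, Adamts2 did not pass the threshold, and Adamts3 was seen on no array. Adamts14, on chromosome 10 in band qB4, has 2 probes, and both passed. The first read -0.68 and -0.57 with Venus and 0.54 and 0.45 with OASIS, as log2 intensity above or below the 75th percentile of the array. The second read -3.47 and -3.34 with Venus and -1.80 and -1.97 with OASIS. The groups did not overlap on either probe, and the replicates lay far closer together than the groups. The log2 fold changes were 1.12 (SE 0.11, limma adjusted p = 0.00736) and 1.52 (SE 0.12, limma adjusted p = 0.00564), or 2.17-fold and 2.87-fold. Adamts14 was the only one of the 18 genes with several tested probes for which every one passed, and it passed under every alternative processing tried. Adamts2, named after its values were seen, read 1.20 and 1.15 with Venus and 1.43 and 1.26 with OASIS on its brighter probe, a log2 fold change of 0.17 (95% interval -0.13 to 0.47). The interval of Adamts2 leaves out a 2-fold change.

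ADAMTS proteases of aggrecan and versican open the proteoglycan matrix, and 5 of these 7 genes were tested. Adamts8 passed the threshold on its 1 probe, in band qA4 of chromosome 9, at intensities close to background. It read -5.83 and -6.19 with Venus, where 1 of the 2 arrays was well above background, and -5.01 and -4.72 with OASIS. The log2 fold change was 1.14 (SE 0.18, limma adjusted p = 0.0187). Without Venus replicate 2 it was 0.96 and without OASIS replicate 2 it was 0.997, both short of 2-fold, and after another background correction (normexp) it was 0.18. The neighbouring Adamts15 was seen on no array.

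The other genes of this role did not pass the threshold. Adamts1, which like Adamts4 and Adamts5 was chosen after its values were seen, read 4.30 on each Venus array and 4.29 and 4.17 with OASIS, with a 95% interval of -0.34 to 0.21 that leaves out a 2-fold change. Its neighbour on chromosome 16, Adamts5, gave -0.64 on its brighter probe (limma adjusted p = 0.0223) and 0.23 on the other (limma adjusted p = 0.519). Adamts4 gave -0.57, -0.55 and -0.49 on its 3 probes, with adjusted p-values between 0.243 and 0.341 by limma. On each Adamts4 probe the arrays numbered 2 read higher than those numbered 1 in both groups, and the groups overlapped. Adamts9 gave -0.14 on its 1 tested probe, and its other 3 probes were each seen on 1 or 2 arrays and were not tested. Adamts20 was seen on 1 Venus array.

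The remaining ADAMTS proteases include enzymes of microfibrils, of cartilage oligomeric matrix protein and of blood, and 6 of these 9 genes were tested. The largest change was that of Adamts17, which acts in fibrillin microfibril biology, on chromosome 7 in band qC. On the probe that represents the gene, the values were -5.06 and -4.84 with Venus and -1.94 and -2.08 with OASIS. These 4 values were well above background, and the groups lay apart by far more than the replicates did. The log2 fold change was 2.94 (SE 0.13, limma adjusted p = 0.00209), a 7.66-fold rise, and it stayed past the threshold under every alternative, down to 1.58 after normexp.

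The other 3 probes of Adamts17 did not give the same picture. A second probe of the same RefSeq transcript read -5.48 and -6.05 with Venus and -4.20 and -4.72 with OASIS, a log2 fold change of 1.31 (SE 0.27, limma adjusted p = 0.0334), with 1 Venus array well above background. A probe of an Ensembl transcript was well above background on both OASIS arrays, at -4.23 and -4.88, and on neither Venus array, so that OASIS was at least 2.97-fold higher (limma adjusted p = 0.0331). These 2 probes each lost the call under 4 alternatives. The probe of a predicted transcript variant read -4.73 and -5.50 with Venus and -5.61 and -6.45 with OASIS, a log2 fold change of -0.91 (SE 0.39, limma adjusted p = 0.153), and its groups did not overlap, with a gap between them of 0.11. With a spread of 3.85 between its highest and lowest probe, Adamts17 had the widest range of the 18 genes.

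Adamts12, an enzyme that cleaves cartilage oligomeric matrix protein, lies on chromosome 15 in band qA1. It read -3.52 and -3.49 with Venus and -2.23 and -2.32 with OASIS, so that the groups did not overlap. Its log2 fold change of 1.22 (SE 0.10, limma adjusted p = 0.00621) fell to 0.87 after normexp, where it no longer reached 2-fold. Its other 2 probes were seen on no array.

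Adamts10, which also acts in microfibril biology, passed on 1 of 4 tested probes, which read -3.89 and -4.03 with Venus and -2.76 and -2.78 with OASIS. The log2 fold change was 1.19 (SE 0.11, limma adjusted p = 0.00674), and after normexp it was 0.63, short of 2-fold. The other 3 gave 0.69, 0.72 and 0.38, so that the 4 probes lay on the same side of 0. The probe at 0.72 was seen on neither Venus array and gives a bound of at least 1.63-fold (limma adjusted p = 0.026). The brightest, at 0.38 (limma adjusted p = 0.0527), represents the gene in the count of genes, and the deposited table describes its transcript as one for ADAMTS-1. Of Adamts6, Adamts7 and Adamts18 no probe passed, and Adamts13, Adamts16 and Adamts19 were seen on no array.

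**Figure D4:**
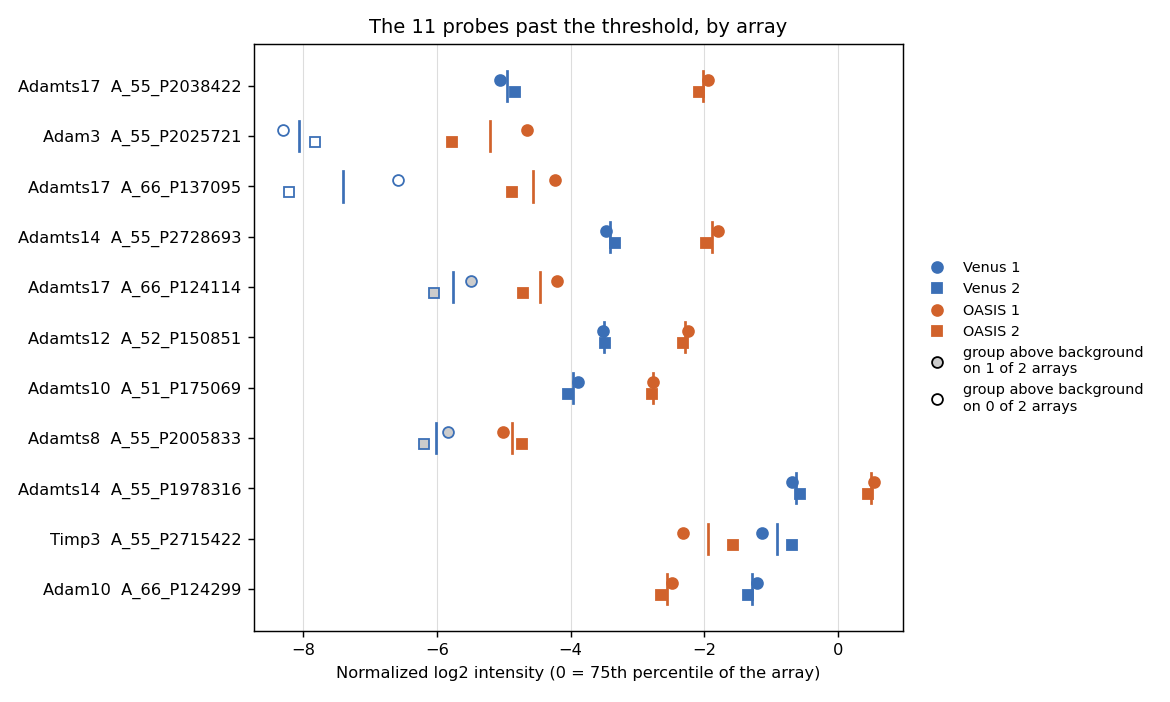
Normalized log2 intensity on each of the 4 arrays for the 11 probes past the threshold, with a bar at each group's mean of 2 arrays. The values of the groups do not overlap on any of them, but the threshold chose the probes on these same values. Among all probes tested, both OASIS arrays lay above both Venus arrays for 28.6% and below both for 39.4%. Grey or open symbols mark a group that was well above background on 1 or on neither of its arrays.

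Markers of other cell types were set beside these results. For fibroblasts the mean normalized log2 intensity of the 6 tested genes of 8 was 0.29 and 0.37 with Venus and 1.02 and 1.08 with OASIS. In this list Pdgfra, a receptor of fibroblasts, passed as higher with a bound of 7.96-fold (limma adjusted p = 0.00147). The other 5 tested genes gave between -0.58 and 0.13 and did not pass, and Lum and Thy1 were seen on no array. The median log2 fold change of the 10 tested probes of this list was -0.10, and the mean of the intensities rests on Pdgfra. The mean of the 8 tested podocyte markers went from -0.78 and -0.65 to -0.056 and -0.0039, while the median log2 fold change of their 17 tested probes was -0.14. Wt1 and Cd2ap were called higher by their brightest probes, at 4.62 and 1.09, with other probes at -0.16 for Wt1 and at -0.37 and 0.31 for Cd2ap, and 1 of the 2 Kirrel probes was called lower, at -1.11. For tubular epithelium, 3 of 5 markers were tested, and their mean was 2.53 and 2.95 with Venus and 3.11 and 3.55 with OASIS. The median log2 fold change of their 8 tested probes was 0.046. Of these markers Lrp2 alone passed as higher, and Umod was seen on no array. Of the macrophage markers 4 of 5 were tested and none passed, with means of 1.11 and 1.17 against 1.07 and 1.25 and Adgre1 seen on no array. Of the endothelial markers Cdh5, Kdr and Tek were seen on no array, and Pecam1 did not pass. The part of these genes in the protease results was not tested.

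The 5 ADAMTS-like proteins, which bind microfibrils and have no protease activity, gave 2 tested genes and no call. Adamtsl5 gave -0.52 (limma adjusted p = 0.063) and -0.79 (limma adjusted p = 0.0384) on its 2 probes, and Adamtsl4 gave -0.07 and -0.03. Adamtsl3 was well above background on 1 Venus array and no OASIS array, with a bound of 1.31-fold lower, and was not tested.

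The somatic ADAM proteases are the sheddases of most tissues, and all 9 were tested, with 16 probes. By the brightest probe none of the 9 genes passed the threshold. Adam10, the sheddase of Notch receptors and N-cadherin, on chromosome 9 in band qD, had probes that disagreed although the table assigns both to the same RefSeq transcript. The brighter one read 1.66 and 1.73 with Venus and 1.77 and 1.92 with OASIS, a log2 fold change of 0.15 (SE 0.11, limma adjusted p = 0.362). The other read -1.21 and -1.35 with Venus and -2.48 and -2.65 with OASIS, a fall of 2.43-fold (log2 fold change -1.28, SE 0.12, limma adjusted p = 0.00716). Each probe had replicates that lay closer together than the difference between the probes, which was 1.44.

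Adam17, the sheddase of TNF and of EGF receptor ligands, gave -0.14, -0.43 and -0.31 on its 3 probes (limma adjusted p between 0.0507 and 0.38). Adam9 gave 0.34 (limma adjusted p = 0.072). Adam15 gave between 0.02 and 0.09 on 3 probes. These 3 genes were named after their values were seen. Of Adam12, a protease of muscle and of fibrotic tissue, the brightest probe, of the RefSeq transcript, gave -0.45 (limma adjusted p = 0.218). A pair of probes of an Ensembl transcript gave 0.64 and 0.65 (limma adjusted p = 0.0579 and 0.0499). Another Adam12 probe, of the same RefSeq transcript as the brightest, was seen on 1 OASIS array and no Venus array. It lay in the opposite direction to the brightest, with a bound of 1.58-fold higher, and was not tested. It passed as higher without OASIS replicate 2 (limma adjusted p = 0.0157), on Venus values under background. Adam8, Adam19, Adam28 and Adam33 had 1 tested probe each, between -0.54 and 0.16.

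Adam11, Adam22 and Adam23 lack protease activity and act as receptors in nerve, and of these Adam11 was the tested one. Its brighter probe gave 0.09. Its other probe was well above background on both Venus arrays, at -5.81 and -5.96, and on neither OASIS array, at -7.14 and -6.02, a bound of at least 1.14-fold lower (limma adjusted p = 0.244).

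The Adams of the male reproductive tract, known for sperm maturation and for binding to the egg, made up 21 of the 33 Adam genes, and 8 of them were tested. Adam3, a sperm surface protein, was the 1 called gene. Its probe, on chromosome 8 in band qA2, read -8.30 and -7.83 with Venus, where neither array was well above background, and -4.66 and -5.77 with OASIS, where both were. The fitted log2 fold change of 2.85 (limma adjusted p = 0.0151) rests on values under background, and the bound was 1.88-fold higher, short of 2-fold. The other 2 Adam3 probes were seen on no array. Adam30 was likewise seen on both OASIS arrays, at -5.22 and -5.51, and on neither Venus array, at -6.19 and -6.45, with a bound of at least 1.69-fold higher (limma adjusted p = 0.0215). Adam1a read -2.50 and -2.72 with Venus and -1.57 and -1.74 with OASIS, a log2 fold change of 0.96 (limma adjusted p = 0.0145), just short of 2-fold. Adam1a and Adam30 passed as higher without Venus replicate 1, at 1.06 and 1.08, and without OASIS replicate 2, at 1.04 and 1.10, and Adam5 passed as lower without either, at -1.15 and -1.13. Adam26b gave -0.58 (limma adjusted p = 0.0233) and, like Adam1a, was named after its values were seen.

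In the RefSeq gene order of GRCm38.p6, several of these genes are neighbours. Adam18, Adam3, Adam5, Adam32 and Adam9 follow each other on chromosome 8, and Adam3 was the 1 of the 4 tested that was called, while next to it Adam5 gave -0.89 and, beyond Adam5, the 4 Adam32 probes gave -0.46 to -0.76. Of Adam24, Adam25, Adam20 and Adam39, also on chromosome 8, none was seen on any array. The annotation was used for order alone, since the array was designed on mm9.

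None of the 12 tested Mmp genes passed the threshold in either direction, and 9 of them had a 95% interval within 2-fold. At an unadjusted limma p under 0.05 and any fold, 2 of the 12 were lower and 0 higher, a share of 16.7% where 40.9% of all named genes passed in either direction. A run of 10 Mmp genes lies on chromosome 9 in band qA1, Mmp13, Mmp12, Mmp1b, Mmp3, Mmp1a, Mmp10, Mmp8, Mmp27, Mmp20 and Mmp7, and 7 of them were seen on no array. Of this run Mmp10 and Mmp8 were tested. Mmp10, a stromelysin, read -1.16 and -0.87 with Venus and -1.35 and -0.67 with OASIS, so that the OASIS arrays enclosed the Venus arrays, with a 95% interval of -0.69 to 0.69. The neutrophil collagenase Mmp8 gave 0.04 (limma adjusted p = 0.867). Mmp27 was seen on 1 OASIS array and no Venus array, with a bound of 1.31-fold higher, and was not tested. Without OASIS replicate 2 it was tested and passed as higher (limma adjusted p = 0.037), on Venus values under background.

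The Mmp gene with the largest difference was Mmp11, stromelysin-3, a gene known from tumour stroma. It read 1.23 and 1.28 with Venus and 0.10 and 0.51 with OASIS, and the groups did not overlap. The log2 fold change of -0.95 (SE 0.17, limma adjusted p = 0.0232) fell just short of 2-fold. Without OASIS replicate 2 it was -1.16, past the threshold.

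The gelatinases digest denatured collagen and collagen IV of the basement membrane. Mmp2 read -1.43 and -1.12 with Venus and -1.31 and -1.20 with OASIS, a log2 fold change of 0.02 (95% interval -0.36 to 0.41) that leaves out a 2-fold change. Mmp9 gave -0.94 (SE 0.35, limma adjusted p = 0.119) on a probe that was seen on 1 of the 2 OASIS arrays, and its other probe was seen on 1 array of each group and was not tested. The call of Mmp9 turned with the array left out. Without OASIS replicate 2 the tested probe stood at -1.45 and passed as lower (limma adjusted p = 0.0198), and without OASIS replicate 1 the other probe was tested, stood at 1.64 and passed as higher (limma adjusted p = 0.032).

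The membrane-type MMPs act at the cell surface, where MMP14 activates pro-MMP2. Mmp14 gave 0.30 (95% interval -0.05 to 0.65), and Mmp15, Mmp17 and Mmp24 gave between -0.19 and 0.04. Mmp19, Mmp23 and Mmp28 gave between -0.44 and 0.03 on 4 probes. Mmp2, Mmp9, Mmp10, Mmp11 and Mmp14 were named after their values were seen.

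Of the inhibitors, Timp1, Timp2 and Timp3 were well above background on all 4 arrays, and the 3 Timp4 probes were seen on none. No Timp gene passed the threshold by its brightest probe, although each of the 3 tested had an unadjusted limma p under 0.05, as 40.9% of all named genes had. Timp1, on the X chromosome, read 3.73 and 3.40 with Venus and 4.49 and 4.15 with OASIS. The groups did not overlap, and the gap between them was 0.42. The log2 fold change of 0.75 (SE 0.18, limma adjusted p = 0.048) was 1.69-fold, under the 2-fold limit.

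Timp2, the inhibitor that also takes part in pro-MMP2 activation, gave opposite directions on 2 probes of the same RefSeq transcript. The brighter one read 5.95 and 5.90 with Venus and 6.37 and 6.51 with OASIS, a log2 fold change of 0.52 (limma adjusted p = 0.0334). The other read 5.28 and 5.30 with Venus and 4.70 and 4.76 with OASIS, a log2 fold change of -0.56 (limma adjusted p = 0.0237). On each of them the groups did not overlap and the replicates lay closer together than the groups, so that no direction can be given for Timp2 as a gene.

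Timp3, the matrix-bound inhibitor of the family, lay lower with OASIS on 3 of 3 probes. The pair of probes of its RefSeq transcript gave -0.35 (limma adjusted p = 0.0662) and -0.34 (limma adjusted p = 0.0858), or 1.28-fold and 1.27-fold lower, under the 2-fold limit. The probe of an Ensembl transcript read -1.14 and -0.68 with Venus and -2.31 and -1.57 with OASIS, a log2 fold change of -1.03 (SE 0.30, limma adjusted p = 0.0721). That probe passed the threshold by 0.029 on the log2 scale and lost the call under 7 alternatives.

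**Figure D5:**
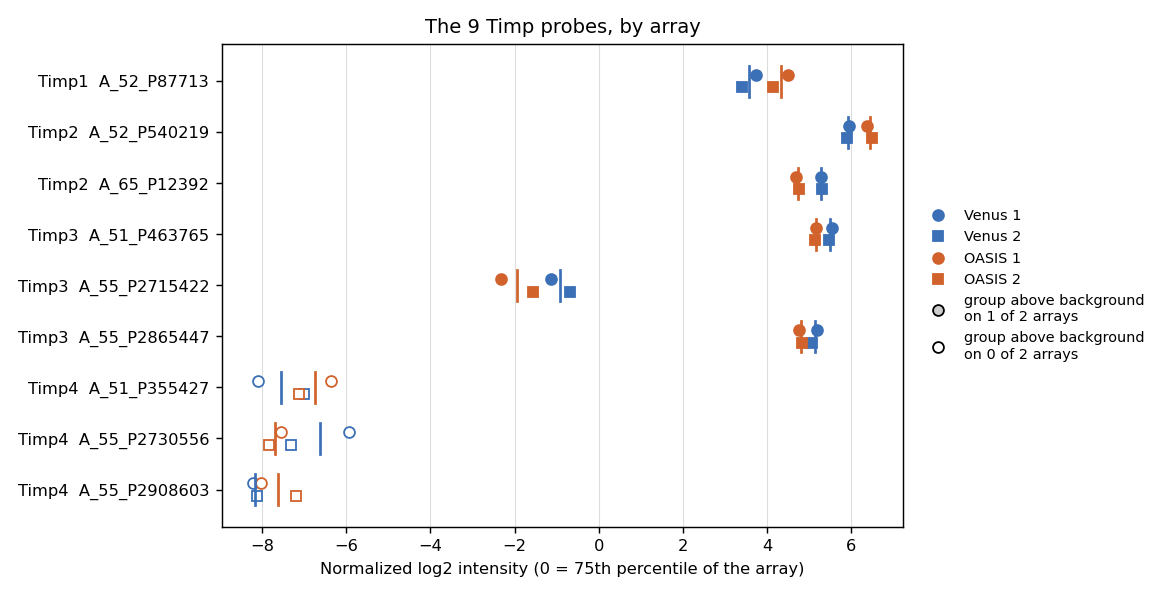
Normalized log2 intensity of the 9 Timp probes on each of the 4 arrays, with a bar at each group's mean of 2 arrays and open symbols for a group seen on neither array. The 2 Timp2 probes lie on opposite sides, at 0.52 and -0.56, the 3 Timp3 probes are lower with OASIS, and the 3 Timp4 probes carry open symbols.

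Disagreement between probes of a gene was frequent. Of the 18 genes with more than 1 tested probe, 8 had probes on both sides of 0, and 4, Adamts17, Adam10, Adam12 and Timp2, had probes that differed by more than 1 on the log2 scale. For 4 genes, Adam10, Adamts10, Adamts17 and Timp3, some tested probes passed and others did not. Of the 48 tested genes, 32 had a 95% interval within 2-fold in either direction on the brightest probe.

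In the Gene Ontology terms of the deposited table, 61 of the 84 genes carry metalloendopeptidase activity, of which 35 were tested and 3 were higher. Extracellular region was given to 41 genes, of which 24 were tested and 3 were higher. Genes are counted here by their brightest probe, and among all named genes tested 6.21% were higher and 1.85% lower. Extracellular space was given to 41 genes, of which 26 were tested, and extracellular matrix to 30, of which 18 were tested. No gene of those terms was called. Of the 25 genes with collagen catabolic process 14 were tested and none was called. Integral component of membrane was given to 30 genes, of which 18 were tested and 1 was higher. Plasma membrane was given to 17, of which 12 were tested and 1 was higher.

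Genes whose products mature, escort, inhibit or clear these proteases were taken from a list of 23, of which 18 were tested. By the brightest probe none passed the threshold, and 17 had a 95% interval within 2-fold. At an unadjusted limma p under 0.05, 2 of the 18 were higher and 1 lower, again beside 20% and 20.9% of all named genes. Furin, which removes the propeptides of many ADAM and ADAMTS enzymes, gave 0.07 on its brighter probe. Rhbdf1 and Rhbdf2, the escorts of ADAM17, gave between 0.08 and 0.11, and the ADAM10 escort Tspan15 gave -0.17, -0.49 and 0.61 on 3 probes. Bmp1, the procollagen C-proteinase, and its enhancer Pcolce gave 0.15 and 0.13 on their brightest probes. Lrp1, a receptor that clears proteases and their inhibitors, gave 0.59 (limma adjusted p = 0.0374) on its brighter probe. A second Lrp1 probe passed as higher, at 1.06 (limma adjusted p = 0.016). It was seen on neither Venus array and gives a bound of 1.59-fold. It was the 1 probe of the 29 tested that passed, where 5.89% of all probes tested were higher. Among these genes, 4 of 29 probes were higher and 3 lower at an adjusted p under 0.1 with no limit on the fold. Of all probes tested, 17% were higher and 19.7% lower in that way.

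Of 26 membrane proteins that ADAMs release, 21 were tested and 1, Cd44, a hyaluronan receptor, was called, as lower. Of all named genes 6.21% were called higher and 1.85% lower. Cd44 read 3.76 and 3.61 with Venus and 2.62 and 2.49 with OASIS, a log2 fold change of -1.13 (SE 0.12, limma adjusted p = 0.00832). The other 2 probes of Cd44 gave -0.29 and 0.17. Nrg1, a ligand of ERBB receptors, had 1 of 5 probes called higher, at 1.14 (limma adjusted p = 0.0122), and 1 called lower, at -1.02 (limma adjusted p = 0.0108), while the brightest gave -0.68 (limma adjusted p = 0.0165). Among 40 probes of these genes 10 were higher and 15 lower at an adjusted p under 0.1 with no limit on the fold. Of all probes tested, 17% were higher and 19.7% lower in that way. Hbegf, an EGF receptor ligand, gave 0.75 (limma adjusted p = 0.0154) on its brighter probe and -0.34 (limma adjusted p = 0.0703) on the other. Tgfa, another such ligand, gave -0.78 (limma adjusted p = 0.0188). By the brightest probe Alcam, at 0.89, and Dll1, at 0.77, lay above Hbegf, and the other tested Alcam probe gave -0.57. These values were under 2-fold, and the genes were named without having passed the threshold.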

How the data were processed

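The authors extracted RNA from 4 samples, and hybridised each to an Agilent array. The deposited scanner output holds spot intensity after background correction by Agilent Feature Extraction 12.1.0.3 (mm9 grid). A second file the authors deposited gives scaled intensity and, per spot, a detection score, and its gene symbols, bands and terms were used.

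Control and outlier spots were left out, the 75th percentile of each array was subtracted on the log2 scale, and the mean was taken over the spots of each probe. Being seen on an array, that is well above background, needs this mark on a share of 0.5 or more of the spots. Probes seen on both arrays of a group were tested with limma 3.58.1 (lmFit, eBayes) in R 4.3.3 with the package data.table, version 1.17.8, and the fit was tested on simulated data. The threshold was that of the methods. Each gene was represented by its brightest tested probe. Where no array of a group was above background, the brighter group's mean was set against, per array of the other group, the higher of the probe's value and the lowest signal above background. The number of arrays limits the precision, and the smallest two-sided p of an exact permutation test of 2 against 2 is 0.333.

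The members and lists were chosen with earlier results of these data known. Genes were named if a tested probe passed, if 2 tested probes differed by over 1 or split in their call, if 1 group was not above background, or if in the Timp family; of the partners and shed proteins, called genes. Others named are said to be chosen later or stand for the range of a list. The 84 symbols matched the RefSeq table of GRCm38.p6. No genome was used, no coordinates are given, and the promoters and sequences were not analysed here. Alternatives were quantile and median scaling, normexp, the scaled values the authors made, other filters, outliers kept, an eBayes trend, the methods' t-test, a stricter adjusted p, the replicate block, other ways to represent a gene, and leaving out each array.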

Additional observations from a re-analysis of the deposited data

How the results depend on the processing

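Of 770 recomputed log2 fold changes of 52 named probes, 722 kept their direction and their side of the threshold, 24 lost the call, 8 gained it and 16 changed sign. The count of 9 higher probes became 3 after normexp, 5 where a probe had to be seen on all 4 arrays and 5 by the methods' t-test, and the 2 lower probes became 1, 2 and 0. At an adjusted p under 0.05 there was 1 lower probe. The 5 higher genes became 2 after normexp, and 3 with that filter or that t-test, which called 0 genes among the Mmp, Adamtsl and Timp families and 0 partners. With the probe of smallest p for each gene, 1 gene was lower, 1 partner gene and 2 shed proteins were called, while 0 shed proteins were called with the t-test or the mean of a gene's probes. Without 1 array, higher probes numbered 7 to 12, lower probes 1 to 7, higher genes 4 to 7 and lower genes 0 to 3, and the median of the tested probes ran from -0.11 (without Venus replicate 1) to -0.032. The 7 lower probes and 3 lower genes came without OASIS replicate 2, where the lone array was assumed to vary like the others. With the replicate number as a block, the counts were 9 higher and 2 lower probes and 5 higher and 0 lower genes, and no named call changed. The labels do not say that the numbers pair the samples, and the differences between arrays 1 and 2 correlated across probes at 0.26 between the groups. The probes that changed sign had main log2 fold changes between -0.14 (Adamts9) and 0.23 (the dimmer Adamts5 probe). Under scaling to the median, normexp, the authors' scaled table and outliers kept, Mmp10 was -0.021, -0.014, -0.013 and -0.0020. After normexp Adamts2 was -0.017 on its dimmer probe and Mmp2 -0.016, and after quantile normalization the probe of Adam15 at 0.025 was -0.0024. Without 1 array, Mmp10 ran from -0.34 to 0.34, Mmp2 from -0.13 to 0.18, Adam11 from -0.092 to 0.27, Adam15 from -0.071 to 0.12, Adamts2 from -0.076 to 0.31, Adamts9 from -0.60 to 0.32 and the dimmer Adamts5 probe from -0.079 to 0.54. Why they changed was not tested. Signals near background limit what can be said of Adam3, Adamts8 and 2 of the Adamts17 probes.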
